A study of Mus musculus with 7 samples.

Results

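The genes described here are 10 genes of T cell identity, chosen by name as parts of the T cell receptor complex, its coreceptors and the factors of the T lineage, out of 35438 genes summed from the deposited transcripts. They are Cd3d, Cd3e and Cd3g, the coreceptor genes Cd4, Cd8a and Cd8b1, the kinase gene Lck, the transcription factor genes Tcf7 and Bcl11b, and the egress receptor gene S1pr1. RNA came from the bone marrow of females, 5 to 6 months old, and was sequenced as strand-specific mRNA libraries. There were 3 libraries from mice labelled Aim2 knock out (KO) and 4 libraries from mice labelled wild type (WT). Aim2 is the gene for a sensor of cytosolic DNA. The same tissue, sex and age range are given for both genotypes. How Aim2 was disrupted, the strain and any pooling of animals are not given in the sources used here. So a p-value here reflects only how far the libraries differ among themselves, which may in part be technical. All 10 genes had enough reads to be tested, among 14214 genes in all.

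T cells recognise peptides through a receptor whose variable chains carry no signalling domain of their own. The invariant CD3 chains pass the signal on, the coreceptors CD4 and CD8 bind the MHC molecule on the other cell and bring the kinase Lck to the receptor, and the transcription factors TCF1 (from Tcf7) and BCL11B set up and hold T cell identity. Adult marrow makes few T cells itself, and most of those found there are mature cells that have come back from the blood. Naive and central memory cells follow S1P gradients out of tissue through S1PR1.

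Sequence before the annotated starts is shown for the clustered CD3 genes and Cd8a, whose levels are set against each other below, and for the separate starts of Lck, whose transcripts are compared there. The set of RefSeq starts used here (GRCm38.p6) had an entry for 7 of the 10 genes. Cd4, Cd8b1 and S1pr1 were not in that set. Each line gives the 250 bases before the RefSeq start, on the strand of the gene and 5′ to 3′, with capitals at matches, on either strand, to TGTGGT (a RUNX core), AGGAAG (an ETS core) or CTTTGA (a TCF/LEF core). The windows are chr9:44981536-44981785, plus strand for Cd3d, chr9:45009612-45009861, minus strand for Cd3e and chr9:44980432-44980681, minus strand for Cd3g. That of Cd8a is chr6:71373177-71373426, plus strand. Those of Lck are chr4:129573642-129573891, minus strand for the distal start and chr4:129558373-129558622, minus strand for the proximal start.
Cd3d: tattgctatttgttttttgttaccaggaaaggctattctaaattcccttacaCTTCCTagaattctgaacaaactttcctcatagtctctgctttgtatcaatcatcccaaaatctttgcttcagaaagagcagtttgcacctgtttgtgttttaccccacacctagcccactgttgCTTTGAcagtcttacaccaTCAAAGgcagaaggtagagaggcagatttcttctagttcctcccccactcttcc
Cd3e: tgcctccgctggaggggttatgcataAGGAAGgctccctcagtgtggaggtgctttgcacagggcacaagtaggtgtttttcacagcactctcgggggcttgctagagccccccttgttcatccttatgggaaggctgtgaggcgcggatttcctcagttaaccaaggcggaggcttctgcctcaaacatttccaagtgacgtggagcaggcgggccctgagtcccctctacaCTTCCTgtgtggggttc
Cd3g: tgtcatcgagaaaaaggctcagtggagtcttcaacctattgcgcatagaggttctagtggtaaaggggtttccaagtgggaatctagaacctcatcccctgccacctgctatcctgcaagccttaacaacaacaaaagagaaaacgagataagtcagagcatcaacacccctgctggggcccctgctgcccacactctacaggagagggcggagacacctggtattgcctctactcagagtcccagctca
Cd8a: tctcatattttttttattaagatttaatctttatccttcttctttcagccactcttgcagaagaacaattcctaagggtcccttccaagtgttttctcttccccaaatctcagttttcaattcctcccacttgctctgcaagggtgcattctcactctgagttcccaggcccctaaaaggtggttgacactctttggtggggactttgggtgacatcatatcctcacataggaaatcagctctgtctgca
Lck distal: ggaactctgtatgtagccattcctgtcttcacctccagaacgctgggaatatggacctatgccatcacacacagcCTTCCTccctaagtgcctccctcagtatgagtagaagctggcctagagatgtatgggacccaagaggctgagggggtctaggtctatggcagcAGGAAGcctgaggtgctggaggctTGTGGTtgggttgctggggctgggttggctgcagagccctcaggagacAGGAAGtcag
Lck proximal: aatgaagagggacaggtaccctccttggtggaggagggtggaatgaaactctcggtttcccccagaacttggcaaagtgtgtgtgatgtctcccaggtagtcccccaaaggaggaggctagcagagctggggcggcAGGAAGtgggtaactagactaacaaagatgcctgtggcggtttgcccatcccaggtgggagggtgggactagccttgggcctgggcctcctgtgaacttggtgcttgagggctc

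The ETS letters were found in the windows of Cd3d, Cd3e and both Lck starts, with 3 matches before the distal Lck start. These letters stand in 29.5% of 32851 mouse windows of the same length. The RUNX letters were found only before the distal Lck start, and stand in 14.0% of all windows. The TCF/LEF letters matched at 2 places before Cd3d and at 1 before Bcl11b, and stand in 13.8% of all windows. The searched letters did not overlap each other in the windows shown. The windows of Cd3g, Cd8a and both Tcf7 starts held no match, which says only that these letters are not there.

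Aim2 had 157, 47 and 59 reads in the KO libraries against 601, 573, 535 and 533 in the WT libraries, so it was lower in every KO library and highest among them in KO library 1. The KO libraries held 20777315 to 21027429 estimated reads and the WT libraries 20300468 to 21099972, so depth was even. Of 14214 genes tested 92 changed, 68 higher and 24 lower in KO, and with TPM and a pseudocount of 0.1 there were 42 higher and 6 lower. The fit with 1 library left out called 42 without KO library 1, 22 without KO library 2 and 65 without KO library 3. It called 65 without WT library 1, 27 without WT library 2, 24 without WT library 3 and 51 without WT library 4. Pairs of libraries within a genotype differed by more than sampling noise, since their chi-square was 9.52 to 58.8 times its degrees of freedom. Immunoglobulin genes took 1.11 to 1.72% of reads in KO and 0.314 to 0.904% in WT.

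Of the 10 genes 1 fell in KO, S1pr1, 0 rose and 9 did not pass the test over all genes. The fitted log2 change, KO over WT, was under 0 for 10 of 10, against 52.7% of all genes tested, with a median of -0.54 against -0.01 over all genes. Over all genes 0.169% were called lower, 0.478% higher and 0.647% in either direction (quasi-likelihood test of edgeR, Benjamini-Hochberg adjusted p under 0.05). Before adjustment 7 of the 10 had a p under 0.05 in the direction of lower, against 4.99% of all genes. In CPM, read counts relative to library size after scaling for library composition, all KO libraries lay under all WT libraries for 6 of the 10 (Cd4, Cd8a, Cd8b1, Lck, Tcf7 and S1pr1), against 5.94% of all genes. With TPM 3 of the 10 did, against 1.38% of all genes, and with scaling by the library total alone 4 did, against 3.08%. The 10 genes were chosen with earlier results of these data known, so these shares only describe them. Their levels also correlated over the 7 libraries, from 0.271 (Cd3e with Cd8a) to 0.974 (Lck with Cd8a). The 10 genes are therefore not independent of each other. These marrow samples are mixtures. Fewer T cells, less RNA per T cell and a change in other cells with these transcripts cannot be told apart.

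**Figure D1:**
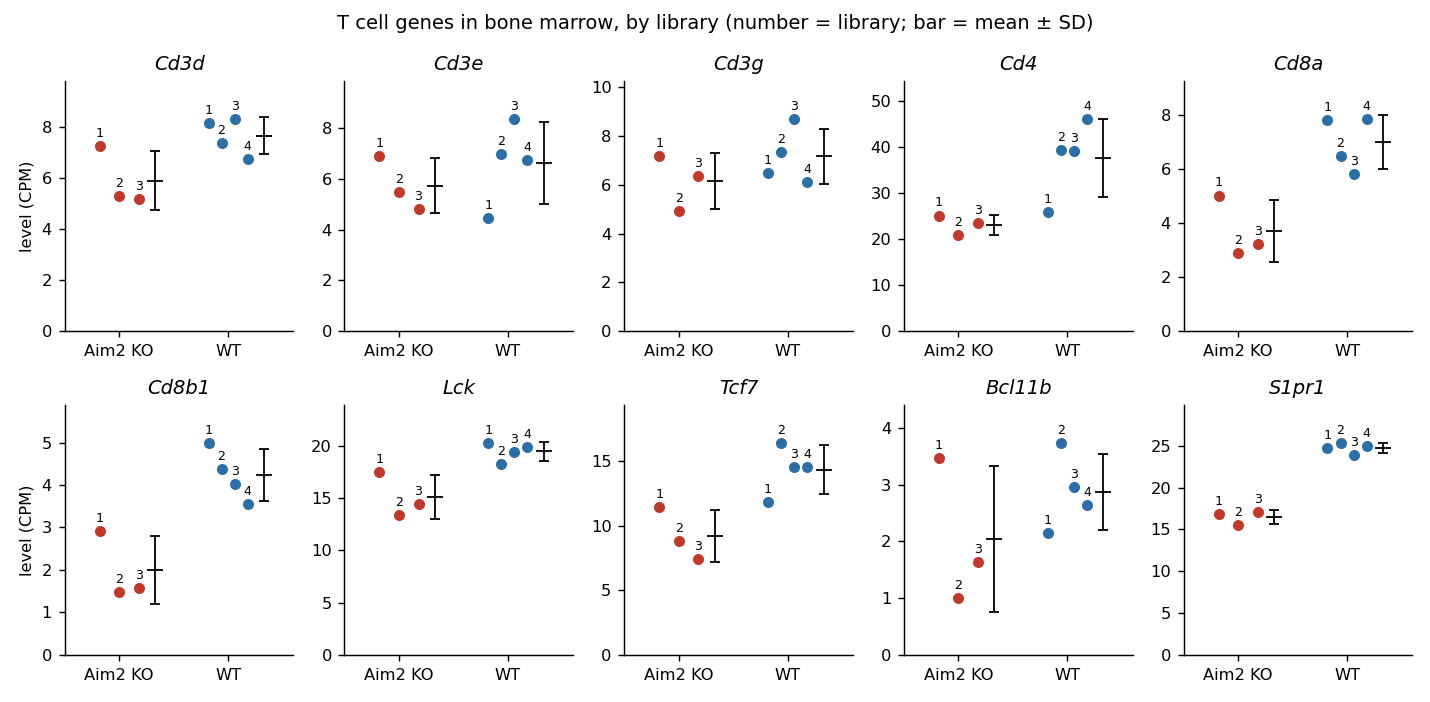
Level in CPM of each of the 10 genes in every library, with the 3 Aim2 KO libraries in red, the 4 WT libraries in blue, the library number above each point and the mean ± SD as a black bar. The groups are apart for Cd4, Cd8a, Cd8b1, Lck, Tcf7 and S1pr1 and overlap for the CD3 genes and Bcl11b.

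The CD3 genes lie together on chromosome 9, with Cd3g (44969572 to 44980431, minus strand), Cd3d (44981786 to 44987339, plus strand) and Cd3e (44998740 to 45009627, minus strand) in that order. Only 1354 bases separate Cd3g from Cd3d, and 11400 separate Cd3d from Cd3e. Their products form the CD3 delta, epsilon and gamma chains that pair inside the receptor complex. None of the 3 passed the test.

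Cd3d was at 7.24, 5.29 and 5.17 CPM in KO libraries 1 to 3, against 8.16, 7.38, 8.30 and 6.76 CPM in WT libraries 1 to 4. The KO libraries 2 and 3 lay under all WT libraries, while KO library 1 lay above WT library 4. Its log2 change was -0.37 ± 0.16 (SE; adjusted p = 0.419). Cd3e was at 6.91, 5.49 and 4.80 CPM in KO against 4.46, 6.99, 8.35 and 6.76 CPM in WT, so that its lowest level of all was in WT library 1. That gene had a log2 change of -0.21 ± 0.22 (SE; adjusted p = 0.777). For Cd3g the levels were 7.19, 4.91 and 6.34 CPM in KO against 6.49, 7.33, 8.69 and 6.13 CPM in WT, with a log2 change of -0.22 ± 0.18 (SE; adjusted p = 0.693). The CD3 genes rested on 102 to 154 reads per KO library and 83 to 179 per WT library.

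The coreceptor genes had the lowest fold changes of the 10. Cd8b1 and Cd8a encode the beta and alpha chains of CD8, the coreceptor for MHC class I on cytotoxic T cells, and are neighbours on chromosome 6 (Cd8b1 71322788 to 71337494, Cd8a 71373427 to 71379173, both plus strand). Cd4 (chromosome 6, 124864692 to 124888221, minus strand) encodes the coreceptor for MHC class II on helper and regulatory T cells. In mice some dendritic cells also make CD8 alpha or CD4, so these transcripts are not particular to T cells.

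Cd8a was at 5.03, 2.89 and 3.22 CPM in KO against 7.84, 6.50, 5.82 and 7.86 CPM in WT. All KO libraries were under all WT libraries, with KO library 1 nearest to them. The KO mean was 3.71 ± 1.15 CPM (SD, n = 3) and the WT mean 7.01 ± 1.01 CPM (SD, n = 4). The log2 change was -0.92 ± 0.22 (SE; adjusted p = 0.144), which did not pass.

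Cd8b1 was at 2.91, 1.49 and 1.59 CPM in KO against 4.99, 4.37, 4.03 and 3.55 CPM in WT. The groups did not overlap, and KO libraries 2 and 3 were at about the same level. Its log2 change of -1.08 ± 0.27 (SE; adjusted p = 0.154) was the lowest of the 10 and did not pass. It rested on few reads, 62, 31 and 35 in KO against 93, 90, 83 and 74 in WT. The count of 31 has an exact Poisson interval of 21.1 to 44.0 reads and the count of 74 one of 58.1 to 92.9 (95%, counting error only).

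Cd4 was at 25.1, 20.8 and 23.4 CPM in KO against 25.8, 39.2, 39.1 and 46.0 CPM in WT. WT library 1 stood close to the KO libraries and the other WT libraries well above them, so the groups were apart by a small margin. The KO mean was 23.1 ± 2.17 CPM (SD, n = 3) and the WT mean 37.5 ± 8.47 CPM (SD, n = 4). The log2 change of -0.70 ± 0.18 (SE) did not pass (adjusted p = 0.172). Without WT library 1 it did, at -0.84 with an adjusted p of 0.0348.

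DESeq2 on the same reads called Cd8a, Cd8b1, Cd4 and Tcf7 lower beside S1pr1, with adjusted p of 0.00884, 0.0126, 0.0108 and 0.030. The voom fit with sample weights called Cd8b1, Cd4, Tcf7 and S1pr1. These methods called more genes over all, 404 and 302 against 92.

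**Figure D2:**
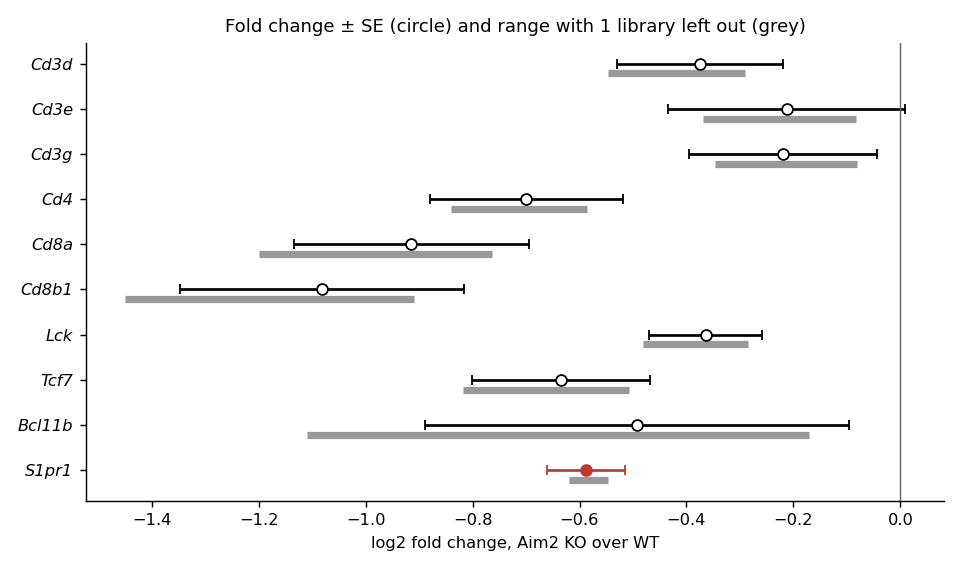
Log2 change of each gene, KO over WT, with its SE (circle and whiskers, filled red where the adjusted p was under 0.05) and, as a grey bar, the range of the fold change when 1 library at a time was left out. All bars lie under 0, and that of S1pr1 is the shortest.

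Lck, the Src family kinase that phosphorylates the CD3 chains (chromosome 4, 129548344 to 129573641, minus strand), was at 17.5, 13.4 and 14.5 CPM in KO against 20.3, 18.3, 19.4 and 19.9 CPM in WT. The groups were apart, with KO library 1 close to WT library 2. The log2 change of -0.36 ± 0.10 (SE) did not pass (adjusted p = 0.221). It moved to -0.21 with an offset for transcript length, and to -0.07 or -0.06 with TPM and a pseudocount of 0.1 or 1. NK cells also use Lck.

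Lck is read from a distal and a proximal start 15269 bases apart, of which the proximal one is known for use in immature thymocytes and the distal one in mature T cells. Transcript Lck-202 begins at the distal start (129573641) and took most reads, 355, 235 and 303 in KO against 332, 356, 369 and 320 in WT. It held 84.2 to 95.5% of Lck reads in KO and 76.9 to 94.6% in WT. Lck-201, which begins near the proximal start (129558391), had 0, 31.2 and 5.47 estimated reads in KO against 41.8, 12.1, 26.2 and 75.6 in WT. KO library 2 lay above WT libraries 2 and 3, so the groups overlapped. An estimate of 0 allows up to 3 reads, and Salmon's model splits the reads of these overlapping transcripts, so the shares are uncertain. Ptcra, the pre-T receptor chain of thymocytes, had 1 read in all KO libraries together and 2 in all WT libraries together, too few to be tested.

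**Figure D3:**
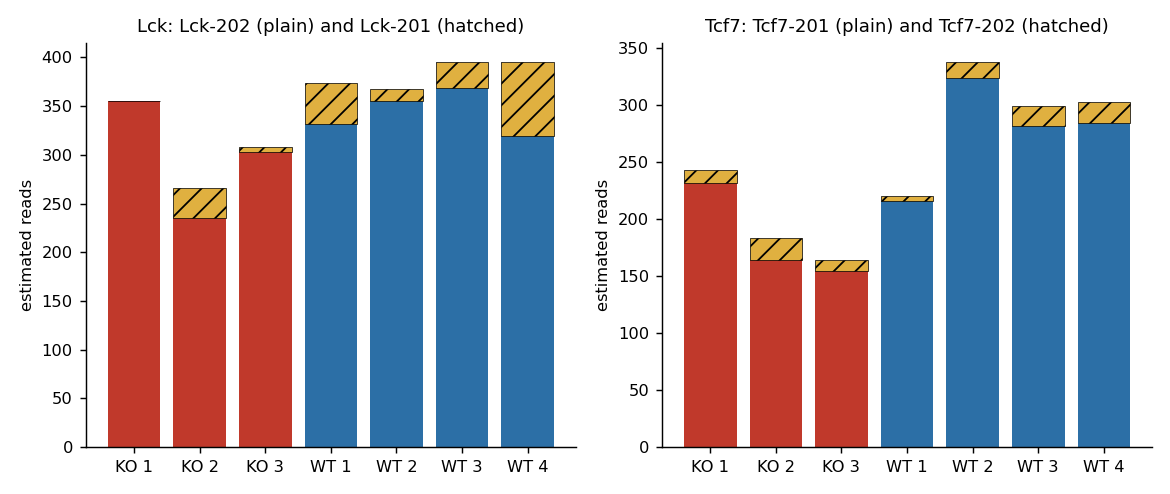
Estimated reads of the leading pair of transcripts of Lck (left) and Tcf7 (right) in each KO (red) and WT (blue) library, with the second transcript stacked on top and hatched. The transcript drawn plain holds most reads in every library for both genes.

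Tcf7 (chromosome 11, 52252371 to 52283014, minus strand) was at 11.4, 8.81 and 7.43 CPM in KO against 11.8, 16.4, 14.5 and 14.5 CPM in WT. KO library 1 and WT library 1 were nearly level and the other libraries further apart. The KO mean was 9.22 ± 2.03 CPM (SD, n = 3) and the WT mean 14.3 ± 1.89 CPM (SD, n = 4), with a change on the log2 scale of -0.63 ± 0.17 (SE; adjusted p = 0.181) that did not pass. The transcript whose 5′ end is at 52282571 held 89.5 to 95.5% of its reads in KO and 93.8 to 98.3% in WT. The other annotated transcript, which begins further upstream at 52283014, had 10.99, 19.3 and 9.19 reads in KO against 3.68, 14.5, 17.3 and 18.8 in WT, with overlap between the groups. TCF1 is also made by innate lymphoid precursors and some progenitors, so marrow Tcf7 need not all come from T cells.

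Bcl11b, the zinc finger factor that commits precursors to the T lineage (chromosome 12, 107910403 to 108003602, minus strand), had the lowest TPM of the 10 in both genotypes. It had 74, 21 and 36 reads in KO against 40, 77, 61 and 55 in WT, or 3.48, 1.01 and 1.63 CPM in KO against 2.15, 3.74, 2.96 and 2.64 CPM in WT. KO library 1 was second of all 7 libraries and KO libraries 2 and 3 were the lowest. The log2 change was -0.49 ± 0.40 (SE; adjusted p = 0.696). Without KO library 1 it was -1.11, and it lay between -1.11 and -0.17 over the fits with 1 library left out, so its size depends on single KO libraries.

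S1pr1 (chromosome 3, 115710433 to 115715072, minus strand), the receptor that lymphocytes follow out of tissue into blood and lymph, was the only one of the 10 to pass. It was at 16.8, 15.5 and 17.0 CPM in KO against 24.7, 25.3, 23.9 and 25.01 CPM in WT. The groups lay far apart beside their spread, with a KO mean of 16.5 ± 0.84 CPM (SD, n = 3) and a WT mean of 24.7 ± 0.62 CPM (SD, n = 4). The log2 change was -0.59 ± 0.07 (SE; adjusted p = 0.021), with the KO mean at 66.5% of the WT mean. Its p ranked 24 among all genes tested. The reads behind it were 358, 322 and 376 in KO against 461, 522, 492 and 522 in WT.

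The call for S1pr1 held when KO library 3 or WT library 1 was left out and missed the threshold without any other library, with adjusted p of 0.0553 without KO library 1, 0.0899 without KO library 2, 0.0807 without WT library 2, 0.0679 without WT library 3 and 0.0521 without WT library 4. Its fold change hardly moved in these fits (-0.62 to -0.55). With limma on TPM values it did not pass (adjusted p = 0.374 and 0.385).

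S1pr1 is also made by B cells and by endothelium, and the markers of both were measured. Of 10 B lineage markers 0 passed, 9 lower had a p under 0.05 before adjustment and 10 had a log2 change under 0. Over all genes these shares were 4.99% and 52.7%. The groups were apart with KO lower for 6 of the 10, against 5.94% of all genes. The 10 markers had a summed level of 187 to 305 CPM in KO and 391 to 618 CPM in WT. Of 10 endothelial markers 0 passed and 9 had a log2 change above 0, against 6726 of 14214 genes tested. Before adjustment 5 higher had a p under 0.05, against 918 of 14214. Also, 5 were apart with KO higher (6.96% of all genes were). The 10 endothelial markers had a summed level of 345 to 357 CPM in KO and 285 to 301 CPM in WT. No marker of either list was at 0. The part of these cells in the S1pr1 result was not tested.

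Compared per transcript length, the genes kept a broad order of level in both genotypes. In TPM, Lck averaged 9.28 ± 1.72, Cd3g 7.75 ± 1.82, Cd4 7.70 ± 1.09 and S1pr1 5.71 ± 0.55 in KO (SD, n = 3), with Cd3e, Cd3d and Tcf7 between 4.08 and 4.4. In WT, Cd4 averaged 11.6 ± 3.50 TPM, Lck 9.65 ± 0.95, Cd3g 8.36 ± 2.04 and S1pr1 7.76 ± 0.83 (SD, n = 4), with Tcf7, Cd3d and Cd3e between 4.85 and 5.76. Cd8b1 (1.56 ± 0.67 TPM in KO and 2.95 ± 0.29 TPM in WT), Cd8a (1.44 ± 0.43 TPM in KO and 2.45 ± 0.32 TPM in WT) and Bcl11b (0.27 ± 0.18 TPM in KO and 0.36 ± 0.11 TPM in WT) came last in both. Ranges of mean ± SD of neighbours in the order overlapped, apart from the steps down to Cd8b1 and to Bcl11b in both genotypes and the step from Cd4 to S1pr1 in KO.

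TPM changed some separations. On that scale 3 of the 10 genes (Cd8a, Cd8b1 and S1pr1) were apart with KO lower, against 1.38% of all genes. Cd4 was at 8.50, 6.46 and 8.14 TPM in KO, and WT library 1 stood among these at 6.68 TPM. S1pr1 stayed apart, at 6.02, 5.08 and 6.04 TPM in KO against 6.52, 8.36, 8.12 and 8.02 TPM in WT. WT library 1 also had the highest share of haemoglobin reads, 19.9%, against 11.4 to 13.7% in KO and 13.8 to 15.6% in the other WT libraries. In the fits on TPM the median over all genes was 0.13 or 0.10 in place of -0.01, and the 10 genes still had log2 changes under 0.

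Ratios between genes of the same library do not depend on its scaling, and 8 of them were compared between the genotypes. The smallest p that an exact permutation test of 3 against 4 libraries allows is 0.0286, and 0 of 8 ratios had a p under 0.05 before or after adjustment. Nearest was Tcf7 to Cd3e, at 1.65, 1.6 and 1.54 in KO against 2.64, 2.34, 1.74 and 2.14 in WT. This was the only ratio whose groups did not overlap (difference in log2 ratio -0.45, exact two-sided p = 0.0571, adjusted over 8 ratios 0.229).

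Cd8a to Cd3e was 0.729, 0.528 and 0.671 in KO against 1.75, 0.931, 0.699 and 1.16 in WT, a difference in log2 ratio of -0.75 (exact p = 0.0857, adjusted 0.229). WT library 3 lay inside the KO range. Cd4 to Cd3e was 3.62, 3.78 and 4.86 in KO against 5.75, 5.60, 4.67 and 6.79 in WT, a difference of -0.48 (exact p = 0.0857, adjusted 0.229). So neither coreceptor was shown to differ from Cd3e in its change.

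The ratio of Cd4 to Cd8a, a rough counterpart of the helper to cytotoxic ratio, was 4.97, 7.15 and 7.24 in KO against 3.28, 6.01, 6.68 and 5.84 in WT. The groups overlapped (difference in log2 ratio 0.27, exact p = 0.457). Cd8b1 to Cd8a, which is lower where CD8 alpha occurs without beta, was 0.581, 0.521 and 0.497 in KO against 0.638, 0.673, 0.693 and 0.453 in WT (exact p = 0.286). Lck, Bcl11b and S1pr1 to Cd3e had differences in log2 ratio of -0.18, -0.45 and -0.40 with exact p of 0.657, 0.314 and 0.143. That of Lck changed sign without WT library 1 (0.02) and with TPM (0.06).

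**Figure D4:**
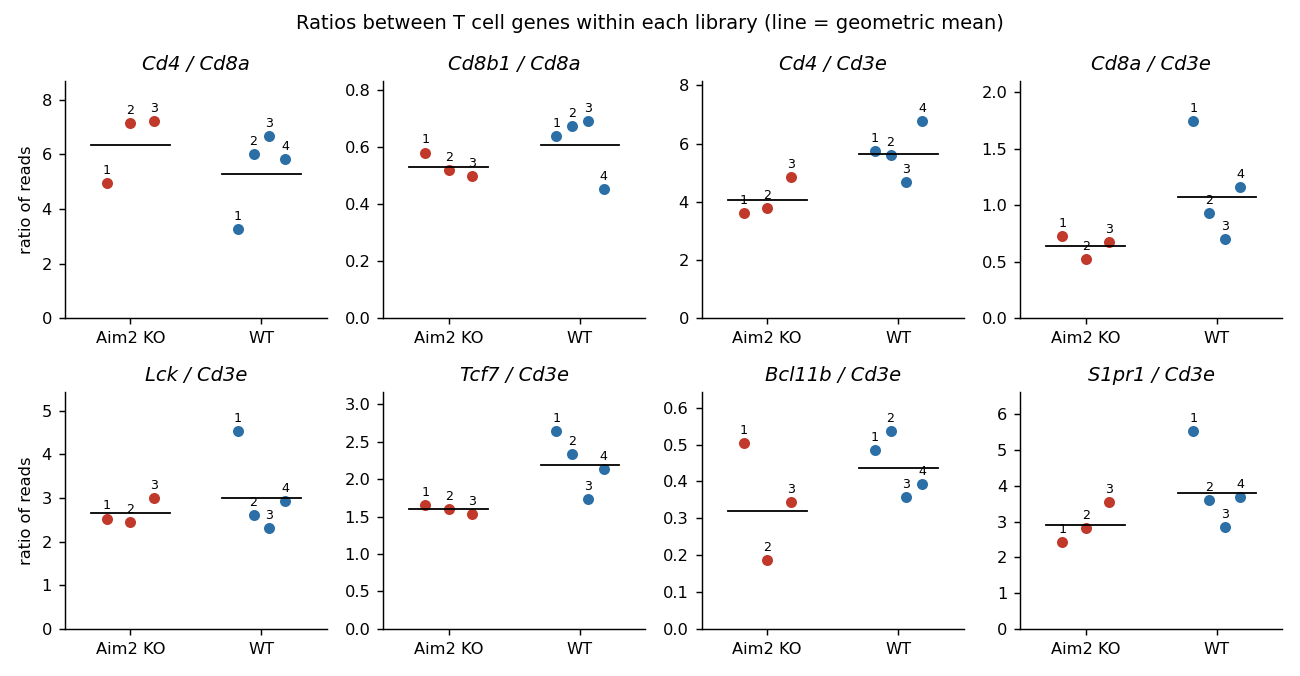
Ratio of estimated reads between pairs of T cell genes within each library, with the 3 KO libraries in red, the 4 WT libraries in blue, library numbers above the points and geometric means as lines. The groups are apart for Tcf7 to Cd3e and overlap for the other 7 ratios.

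Among the KO libraries, library 1 held the highest level for 9 of the 10 genes and library 2 the lowest for 7. The median of the 10 genes lay 0.23, 0.66 and 0.58 below the WT mean on the log2 scale in KO libraries 1, 2 and 3. Aim2 itself was also highest in KO library 1, at 7.38 CPM against 2.26 and 2.67 CPM in KO libraries 2 and 3 and 25.5 to 32.3 CPM in WT. The B lineage markers summed to 305, 187 and 285 CPM in these KO libraries. The part of either in the spread of the T cell genes was not tested. Without KO library 1, 8 of the 10 genes were apart between the groups with KO lower, against 10.3% of all genes. With any other library left out 6 or 7 were, against 7.99 to 14.0% of all genes.

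Of 23 other genes of the T cell receptor complex and its signalling 0 passed, with 17 log2 changes under 0, 6 above 0 and a median of -0.12 against -0.01 over all genes. Before adjustment the p was under 0.05 for 7 lower and 1 higher, against 709 lower and 918 higher of 14214 genes tested. Over all 120 listed genes DESeq2 called 18 and voom 16 against 2 here. Themis, which tunes receptor signals, was at 0.987, 0.385 and 0.363 CPM in KO against 1.77, 1.601, 1.12 and 1.53 CPM in WT (log2 change -1.37 ± 0.39, SE; adjusted p = 0.216). The surface protein gene Thy1 was at 15.0, 12.8 and 12.9 CPM in KO against 17.8, 17.6, 17.8 and 15.1 CPM in WT (-0.33 ± 0.10, SE; adjusted p = 0.251). Both were apart between the groups, and 6 of the 23 genes were apart with KO lower (5.94% of all genes were) and 1, Lcp2, with KO higher (6.96% of all genes were).

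The constant regions of the receptor itself were picked out after their values were seen. Trac, Trbc1 and Trbc2 had log2 changes of -0.30, -0.44 and -0.45, and Cd247, the CD3 zeta chain, -0.50 (adjusted p = 0.317 to 0.489). Trbc1 and Trbc2 are near-identical, so the split of reads between them is uncertain.

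Of 18 other T cell transcription factors 0 passed and 10 had log2 changes under 0, with a median of -0.02. Before adjustment 4 lower and 0 higher had a p under 0.05, against 709 lower and 918 higher of 14214 genes tested. Lef1, the relative of Tcf7, was at 2.44, 2.65 and 4.12 CPM in KO against 9.71, 6.36, 6.02 and 11.7 CPM in WT (log2 change -1.46 ± 0.30, SE; adjusted p = 0.0908). Klf2, which drives S1pr1 transcription in T cells, was at 47.1, 39.3 and 48.9 CPM in KO against 59.0, 55.2, 63.9 and 61.5 CPM in WT (-0.41 ± 0.09, SE; adjusted p = 0.121). Neither overlapped between the groups. Of the 18 factors 4 were apart with KO lower (5.94% of all genes were) and 0 with KO higher (6.96% of all genes were). Lef1 is also a gene of B cell precursors, and Klf2 is used by B cells and endothelium.

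Of 15 genes of T cell trafficking and naive or memory state 1 fell, 0 rose and 14 did not pass, with a median log2 change of -0.03. Over all genes 0.169% were called lower and 0.478% higher. Before adjustment 3 lower and 1 higher had a p under 0.05, against 709 and 918 of 14214 genes tested. The groups were apart for 3 with KO lower and 1 with KO higher, against 5.94% and 6.96% of all genes. The one that fell was Ccr7, the homing receptor of naive lymphocytes and migrating dendritic cells, at 4.98, 2.98 and 4.12 CPM in KO against 8.27, 10.7, 11.1 and 12.1 CPM in WT (log2 change -1.39 ± 0.20, SE; adjusted p = 0.032). Among 8 genes of gamma-delta and innate-like T cells 0 passed (median -0.02, unadjusted p under 0.05 for 1 lower, against 4.99% of all genes). Blk, a kinase of B cells and some gamma-delta cells, was at -1.09 on the log2 scale (adjusted p = 0.0837), and the constant region Tcrg-C1 at -0.49 (adjusted p = 0.696).

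Among 7 tested genes of the Notch pathway and early T precursors 0 passed (median -0.02, unadjusted p under 0.05 for 2 lower, against 4.99% of all genes). Dtx1, a Notch target that B cells also express, was at 2.91, 0.866 and 2.45 CPM in KO against 4.67, 5.78, 6.41 and 7.28 CPM in WT (log2 change -1.54 ± 0.37, SE; adjusted p = 0.140), and Lmo2, a progenitor factor, had -0.24 (adjusted p = 0.358).

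Other cells that share some of the 10 genes were followed by their markers. Of 10 NK cell markers 0 passed, with 6 log2 changes above 0 and a median of 0.17. Before adjustment 2 higher and 1 lower had a p under 0.05, against 918 and 709 of 14214 genes tested. The 10 NK cell markers had a summed level of 85.0 to 95.6 CPM in KO and 68.3 to 85.4 CPM in WT. The largest part of that sum was Nkg7, which averaged 54.1 CPM in KO and 44.7 CPM in WT. The 1 lower was Gzma, at a log2 change of -0.69 (adjusted p = 0.360), and 4 of the 10 were under 0. Nkg7 and S1pr5 were at 0.28 and 0.73 (adjusted p = 0.348 each). Of 9 tested dendritic cell markers 1 fell, Cd209a (2.02, 2.45 and 2.54 CPM in KO against 5.53, 5.14, 6.99 and 6.23 CPM in WT, adjusted p = 0.021), and the other 8 did not pass. Ccr7 and Cd209a were the 2 calls among all 120 listed genes. Over all genes 0.169% were called lower and 0.647% in either direction. The count of calls among the listed genes was 0 without KO library 2, WT library 3 or WT library 4, and 1 without KO library 1, KO library 3 or WT library 2. The summed level of the dendritic cell list was 141 to 191 CPM in KO and 153 to 175 CPM in WT. Of 10 markers of monocytes and macrophages 0 passed. Before adjustment 2 higher had a p under 0.05, against 918 of 14214 genes tested. The 2 were Fcgr1 at a log2 change of 1.03 (adjusted p = 0.0658) and Ccr2 at 0.31 (adjusted p = 0.436). The 10 markers of this list had a summed level of 3627 to 3736 CPM in KO and 2726 to 4099 CPM in WT. Most of that sum was Lyz2, which averaged 3032 CPM in KO and 2998 CPM in WT. Of the 10 markers 9 had a log2 change above 0 (median 0.16), against 6726 of 14214 genes tested. The groups were apart with KO higher for 2, Fcgr1 and Csf1r, against 6.96% of all genes. In the lists named above the smallest p belonged to Pax5 and Cd79a for B cells (log2 changes -1.21 and -0.98, adjusted p = 0.0682 and 0.0825) and to Stab2 and Kdr for endothelium (0.38 and 0.25, adjusted p = 0.0837 and 0.180).

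**Figure D5:**
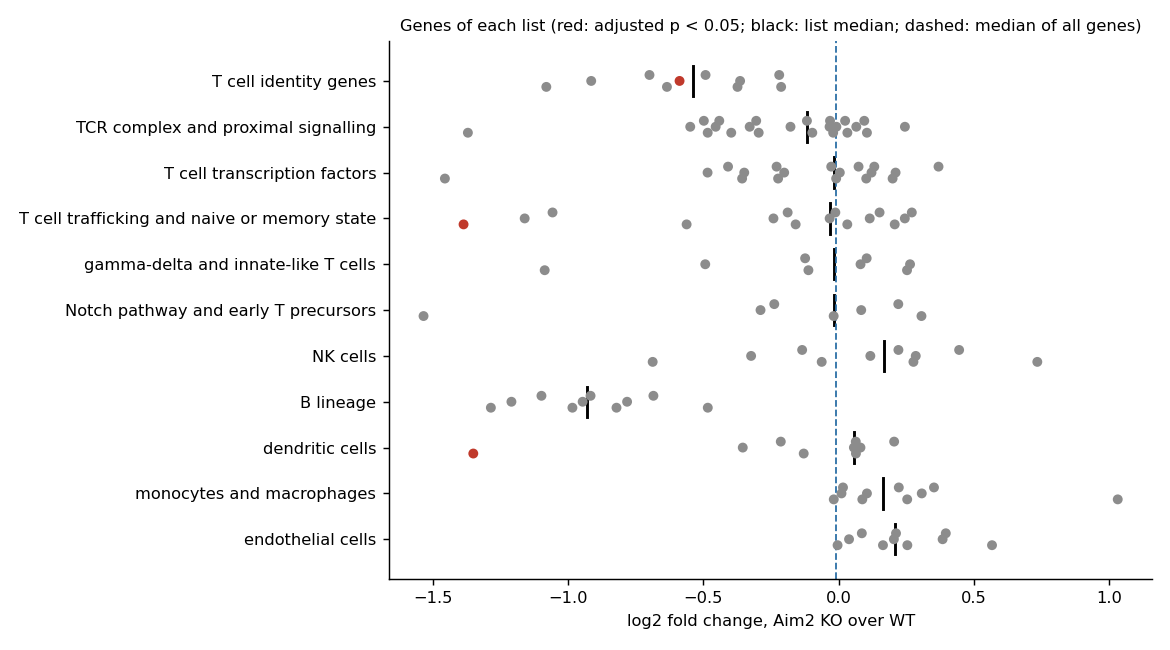
Log2 change, KO over WT, of each tested gene in the T cell identity genes and in 10 other lists, 1 point per gene, with points in red where the adjusted p was under 0.05, list medians as black lines and the median of all genes as a dashed line. The T cell identity genes and the B lineage markers lie wholly under 0, and the other lists hold genes on both sides. Of the endothelial markers 9 of 10 lie above 0, and so do 9 of 10 monocyte and macrophage markers.

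The 6 tested genes whose levels followed the CD3 genes most closely, by Pearson correlation with their mean profile over all 7 libraries, were Igfbp3 (0.977), Ciita (0.972), Swap70 (0.959), Arrdc2 (0.947), Olfr1238 (0.947) and Heca (0.939). This is a ranking over 14214 genes on 7 points that share the split into 2 genotypes and the library scaling, so it carries no test. None of the 6 passed the test between genotypes (adjusted p = 0.377 to 0.652).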

How the data were processed

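Transcripts were quantified with Salmon 1.7.0 after FastQC 0.11.9 on build GRCm38.p6, per the submitters' processing notes. Those notes list DESeq2 with no role. The authors deposited estimated counts per transcript that need not be whole, without normalization, and TPM values scaled for effective length. Salmon's options and the annotation release are not given in the sources used here.

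Transcripts were joined to GENCODE M21 genes. A total of 761 of 116546 transcripts had no gene in the annotation used here, held at most 0.217% of reads in any library and were left out. Within each gene the estimated counts were added up, then rounded, filtered with filterByExpr, scaled with TMM and tested with edgeR 4.0.16 (R 4.3.3) by its quasi-likelihood test for genotype, with Benjamini-Hochberg adjustment over 14214 genes. Libraries were grouped by their titles. Each SE was taken from the log2 change and its F statistic. Ratios used reads + 0.5 and an exact two-sided permutation test over 35 assignments. The quasi-likelihood test was also run on simulated data, with an outcome that is not reported here. Alternatives were RLE and other scaling, other filters, DESeq2 1.42.0, limma 3.58.1 (voom with sample weights, log2(TPM + 0.1) and log2(TPM + 1)), a length offset, a sample number block and leaving out each library. A fit without immunoglobulin genes, and overlap counts under other scalings and left-out libraries, were chosen after seeing the data.

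The genes and lists were chosen with earlier results of these data known. Named were all 10 genes and, of each list, up to 4 genes past the threshold or else the 2 with the smallest p, unless stated. Of the listed genes, Ptcra and Xcr1 had too few reads and Lyl1 was not analysed here. Depth was 20300468 to 21099972 reads per library, and a gene with 100 reads has a counting error of about 10%.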

Additional observations from a re-analysis of the deposited data

How the results depend on the processing

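The direction of all 10 genes held in every alternative run. Against 92 genes changed, 404 were called with DESeq2 (257 higher, 147 lower), 302 with voom weights, 55 with the length offset, 48 and 49 with TPM, 21 with the sample number as a block and 22 to 65 with 1 library left out. Of the 10 T cell identity genes 1 changed as reported, 5 with DESeq2, 4 with voom weights, 0 with TPM at either pseudocount, 0 with the block and 0 to 2 with 1 library left out (2 without WT library 1, 1 without KO library 3 and 0 in the remaining 5 fits). Of the 120 other listed genes tested 2 changed as reported, 18 with DESeq2, 16 with voom weights and 1 with TPM at either pseudocount. The count was 0 with the block and 0 to 2 with 1 library left out. With no filter on low counts 122 listed genes were tested and 4 changed. The count of genes apart between the groups was 6, and 3 with TPM, 4 with scaling by the library total alone and 6 to 8 with 1 library left out. The log2 ratio of Lck to Cd3e reversed with TPM (0.0608) and without WT library 1 (0.0182), and lay between -0.304 and 0.0182 with 1 library left out. The cause was not tested. The labels do not say whether a shared sample number pairs the libraries. Deviations of same-numbered libraries correlated at 0.124, -0.04 and -0.27, and KO library 1 correlated best with WT library 3. With so few libraries these correlations cannot show whether a number marks a shared litter or day. Depth limits Bcl11b, at 21 to 77 reads per library, and Cd8b1, at 31 to 93.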

Other observations

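Factors that mark T cell subsets were chosen for description after their values were seen. Foxp3, which defines regulatory T cells, averaged 2.00 ± 0.78 CPM (SD, n = 3) over KO libraries against 1.54 ± 0.80 CPM (SD, n = 4) over WT libraries and did not pass (log2 change 0.37, adjusted p = 0.805). Zbtb7b and Runx3, the factors of helper and cytotoxic fate, were at 0.20 and 0.10 on the log2 scale (adjusted p = 0.691 and 0.795), and both are also used outside T cells. Gata3 and Tbx21 were at 0.12 and 0.0043 (adjusted p = 0.896 and 0.996). None of these 5 passed, and the groups overlapped for each of them.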
